A study of Mus musculus with 7 samples.

Results

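Homeostatic microglia signature genes are transcripts that resting microglia of the healthy brain express at a high level and most other cells of the brain lack. The 8 genes examined here were Tmem119, Fcrls, Olfml3, Selplg, Sparc, Cx3cr1, Slc2a5 and Aif1. They were taken by symbol, with no threshold on a measured value, from the 55401 gene identifiers of the count table, and each symbol matched 1 identifier. The set was drawn up with earlier results of these data known. All 8 passed the filter on low counts.

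The libraries came from C57BL/6 mice of 6 to 8 weeks, described by the series as male. All mice received a virus carrying Cre under the activity-dependent RAM promoter in the dorsal dentate gyrus, so that Cre is made in neurons recruited by an experience (engram neurons). In the 4 control libraries (EYFP 1 to 4) a Cre-dependent virus expressed the fluorescent protein EYFP in those neurons, and in the 3 ATG7 libraries (ATG7 1 to 3) it expressed Flag-tagged Atg7, a gene needed to build autophagosomes. The transgene was therefore directed at neurons, while RNA was taken from cells of the dorsal hippocampus enriched with CD11b beads. The labels do not say whether a library is 1 mouse or a pool, so the p-values measure the spread between these libraries.

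Microglia hold the homeostatic state under signals from their surroundings, among them transforming growth factor beta and the CSF1 receptor, with PU.1 as a lineage transcription factor. In injury, ageing and amyloid deposition, many homeostatic transcripts are known to fall while a set of disease-associated genes rises. The comparison of ATG7 with EYFP asks here whether the homeostatic transcripts of microglia differ when engram neurons overexpress Atg7.

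Total counts lay between 35934210 and 55217119 per library. EYFP 3 stood apart: Xist was at 938.5 CPM (counts scaled to the library total after its correction by the trimmed mean of M values, TMM) there and between 0.151 and 0.574 CPM in the other 6 libraries, against a male label. The Y-linked genes were reduced there but present, with Ddx3y at 27.6 CPM against 121 to 169 CPM and Uty at 7.38 CPM against 35.5 to 48.0 CPM in the other 6. The order of levels and the fold changes of the 8 genes are therefore also given without EYFP 3. The enrichment was checked with marker lists. Summed over 10 choroid plexus markers, led by Ttr, the libraries held 55427 to 73117 CPM in EYFP and 46986 to 61762 CPM in ATG7. For 10 of 10 the log2 fold change was below 0 (median -0.27; 0 passed with edgeR, 4 at an unadjusted p under 0.05), and 2 were lower without overlap, where 4.91% of all genes tested were. The 12 neuron markers summed to 59.4 to 211 CPM in EYFP and 61.9 to 86.7 CPM in ATG7, with a log2 fold change below 0 for 11 of 11 tested (median -0.38; 0 passed with edgeR, 1 at an unadjusted p under 0.05). The size of that median rested on EYFP 1, the library with the highest sum. It was 0.0186 without EYFP 1, and -0.00135 in limma-voom with quality weights on all 7 libraries. The part of these cells in the values of the 8 genes was not tested. In such bulk libraries fewer microglia and less RNA per microglial cell cannot be told apart.

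Starting sequences of 2 of the genes are shown, because these are the genes with the most positive (Aif1) and the most negative (Fcrls) difference between the groups. They are the 250 bases before the RefSeq start site in GRCm38.p6, written 5′ to 3′ on the gene's own strand. The Aif1 stretch is chr17:35176053-35176302 and the Fcrls stretch is chr3:87263525-87263774, both on the minus strand. In GENCODE M21, which gave the gene positions used below, Aif1 begins at 35176068 and Fcrls at 87263738. A small part of the Aif1 stretch and most of the Fcrls stretch thus lie inside the GENCODE gene. Capitals mark matches on either strand to GAGGAA, the core bound by PU.1, or to GAAANNGAAA, the interferon-stimulated response element.
Aif1: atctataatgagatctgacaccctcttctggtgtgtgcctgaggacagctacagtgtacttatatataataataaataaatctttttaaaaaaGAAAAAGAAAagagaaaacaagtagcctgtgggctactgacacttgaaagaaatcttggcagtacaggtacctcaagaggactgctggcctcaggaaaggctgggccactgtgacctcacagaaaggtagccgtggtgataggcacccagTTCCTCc
Fcrls: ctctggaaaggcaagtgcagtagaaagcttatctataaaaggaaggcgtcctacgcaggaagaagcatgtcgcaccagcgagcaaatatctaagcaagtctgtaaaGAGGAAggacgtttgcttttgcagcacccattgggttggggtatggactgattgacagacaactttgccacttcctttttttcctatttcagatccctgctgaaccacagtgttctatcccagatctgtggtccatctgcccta

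RefSeq windows of 300 bases (250 before and 50 after the start) were at hand for 6 of the 8 genes, and Tmem119 and Selplg had none. GAGGAA on either strand was found in 2 of the 6 windows, those of Aif1 and Fcrls, and in 28.3% of all 32851 windows. GAAANNGAAA occurred in the Aif1 window, within an adenine-rich run, and in 3.44% of all windows. CAGACA, a SMAD motif, was in 3 of the 6 (Fcrls, Slc2a5 and Sparc) and in 21% of all windows. TATAAA was in the window of Fcrls and in 13.6% of all. The windows of Sparc and Cx3cr1 lie wholly inside their GENCODE genes. These are letter matches and were not tied to any measurement of binding.

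The homeostatic genes were abundant per exon length, to different degrees. Tmem119, a transmembrane protein used as a microglial marker, had the highest mean, 797 ± 100.3 CPM per kb of exon (SD, n = 7). Cx3cr1, the receptor for the neuronal chemokine fractalkine, was at 788 ± 93.2 CPM per kb (SD, n = 7). Sparc, a secreted matricellular glycoprotein, was at 668 ± 47.6 CPM per kb (SD, n = 7). Of 19174 tested genes with a known length, 24, 25 and 26 lay above these 3. The first place rested on EYFP 3: over the other 6 libraries Cx3cr1 was at 807 ± 85.6 CPM per kb (SD, n = 6) and Tmem119 at 771 ± 78.9 CPM per kb (SD, n = 6), and Cx3cr1 was the higher in 5 of the 6.

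Fcrls, a scavenger receptor of the Fc receptor-like family, followed at 647 ± 64.5 CPM per kb (SD, n = 7). Selplg, the mucin-like ligand of P-selectin (PSGL-1), was at 461 ± 57.3 CPM per kb (SD, n = 7) and Olfml3, a secreted protein with an olfactomedin domain, at 217 ± 32.2 CPM per kb (SD, n = 7). Slc2a5, the fructose transporter GLUT5, reached 95.6 ± 15.3 CPM per kb (SD, n = 7). Aif1, which encodes the actin-binding protein IBA1 that is widely stained to show microglia, was the lowest at 75.7 ± 9.92 CPM per kb (SD, n = 7). Above these 5 lay 27, 36, 113, 345 and 493 genes. From Sparc down, the order of the means was the same without EYFP 3.

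The order below Fcrls held in each of the 7 libraries: Fcrls was above Selplg, Selplg above Olfml3, Olfml3 above Slc2a5 and Slc2a5 above Aif1. The exon length used was that of all annotated exons of a gene joined, the same in each library. The order depends on it. In CPM not divided by length, Selplg was above Fcrls in each of the 7 (means 1971 and 1510 CPM). The 4 upper genes were not separated by the spread of the libraries. Tmem119 was above Cx3cr1 in 2 of 7 libraries, Cx3cr1 above Sparc in 6 of 7 and Sparc above Fcrls in 4 of 7.

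**Figure D1:**
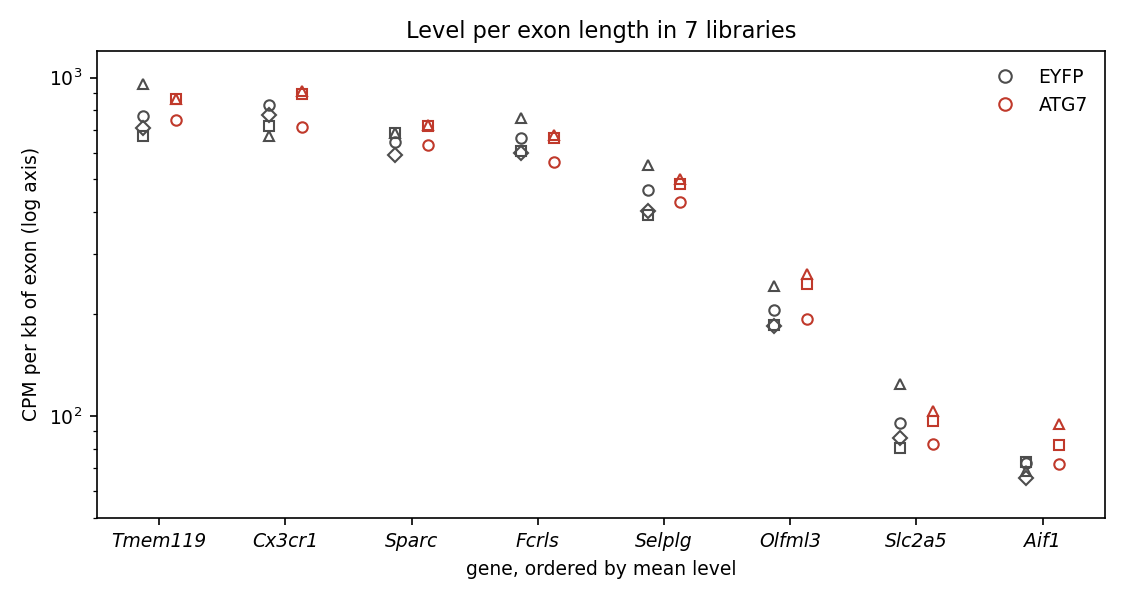
Level of each homeostatic gene as CPM per kb of exon on a log axis, with 1 marker per library (EYFP grey, ATG7 red; marker shapes are replicate numbers). Tmem119, Cx3cr1, Sparc and Fcrls overlap, and the steps from Fcrls down to Selplg, Olfml3, Slc2a5 and Aif1 were seen in 7 of 7 libraries.

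None of the 8 genes passed an adjusted p of 0.05 in the comparison of the groups (edgeR quasi-likelihood test, two-sided, Benjamini-Hochberg adjustment over 19199 genes), where 0.755% of all genes tested did (145 genes). DESeq2 and limma-voom also called 0 of the 8, where they called 3.26% and 1.08% of all genes, and 1 of the 8 (Aif1) had an unadjusted p under 0.05 with each of the 3 tools, where edgeR gave 12% of all genes. The groups overlapped for each of the 8, while 11.2% of all genes tested did not overlap. The log2 fold change (ATG7 minus EYFP) was above 0 for 6 genes and below 0 for 2, where 49.2% of all genes tested were above 0. Its median was 0.09 over the 8 and -0.00365 over all genes tested. The 95% intervals, not adjusted for the number of genes, reached at the lowest 0.783-fold, for Slc2a5, and at the highest 1.39-fold, for Olfml3.

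Among surface proteins, Tmem119 (ENSMUSG00000054675, chromosome 5, 113793729 to 113800516, GRCm38) was at 1777, 1558, 2212 and 1644 CPM in libraries EYFP 1 to 4 and at 1732, 2001 and 1999 CPM in ATG7 1 to 3. The ATG7 libraries lay inside the range of the EYFP libraries, whose highest value was EYFP 3. The means were 1798 ± 291 CPM (SD, n = 4) and 1911 ± 155 CPM (SD, n = 3), and the log2 fold change was 0.09 ± 0.126 (standard error, SE; edgeR adjusted p = 0.850). Without EYFP 3 it was 0.20 (edgeR adjusted p = 0.491).

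Fcrls (ENSMUSG00000015852, chromosome 3, 87250758 to 87263738) was at 1544, 1419, 1775 and 1393 CPM in libraries EYFP 1 to 4 and at 1317, 1543 and 1576 CPM in ATG7 1 to 3. The highest library was EYFP 3 and the lowest ATG7 1. Its log2 fold change was -0.05 ± 0.111 (SE; edgeR adjusted p = 0.905), and its 95% interval ran from 18.5% below to 14.3% above the EYFP level.

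Cx3cr1 (ENSMUSG00000052336, chromosome 9, 119901616 to 120069879) was at 3740.2, 3245, 3031 and 3496 CPM in libraries EYFP 1 to 4 and at 3209, 4026 and 4110.1 CPM in ATG7 1 to 3. ATG7 2 and ATG7 3 were above all EYFP libraries, ATG7 1 was below 3 of the 4, and EYFP 3 was here the lowest of the 7. The log2 fold change was 0.16 ± 0.118 (SE; edgeR adjusted p = 0.653). An antisense gene, Gm33858, overlaps 1.73% of the Cx3cr1 exon length, and the strand setting of the counting is not given in the sources used here.

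Selplg (ENSMUSG00000048163, chromosome 5, 113818536 to 113832644) was at 1983, 1675, 2356 and 1723 CPM in libraries EYFP 1 to 4 and at 1834, 2077 and 2147 CPM in ATG7 1 to 3. As for Tmem119, which lies near it on chromosome 5, the ATG7 libraries fell inside the EYFP range. The log2 fold change was 0.06 ± 0.127 (SE; edgeR adjusted p = 0.900), and 0.17 without EYFP 3 (edgeR adjusted p = 0.600).

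The transporter gene Slc2a5 (ENSMUSG00000028976, chromosome 4, 150119283 to 150144169) was at 324, 273, 424 and 293 CPM in libraries EYFP 1 to 4 and at 281, 330 and 351 CPM in ATG7 1 to 3. EYFP 3 was the highest library and EYFP 2 the lowest, so that the whole range of the gene lay within EYFP. Its log2 fold change was -0.04 ± 0.144 (SE; edgeR adjusted p = 0.954), the largest SE of the 8.

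Of the secreted proteins, Olfml3 (ENSMUSG00000027848, chromosome 3, 103722222 to 103738001) was at 1269, 1143, 1495 and 1133 CPM in libraries EYFP 1 to 4 and at 1189, 1508 and 1614 CPM in ATG7 1 to 3. ATG7 3 was the highest library and ATG7 2 the next, just above EYFP 3, while ATG7 1 was below EYFP 1. The log2 fold change was 0.19 ± 0.130 (SE; edgeR adjusted p = 0.633).

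Sparc (ENSMUSG00000018593, chromosome 11, 55394500 to 55423183) was at 2446, 2594, 2590.1 and 2237 CPM in libraries EYFP 1 to 4 and at 2402, 2716 and 2738 CPM in ATG7 1 to 3. It varied least of the 8, with a coefficient of variation of 7.12% over the 7 libraries, and was the single gene under the median of 8.42% for the 2299 tested genes at a mean of at least 100 CPM. The log2 fold change was 0.09 ± 0.0973 (SE; edgeR adjusted p = 0.796). Sparc is also made by endothelial cells. The summed endothelial and mural markers were at 709 CPM in EYFP 4 and 821 CPM in ATG7 2, the lowest values, where Sparc was at its lowest and at its second highest, and at 1457 CPM in ATG7 3, the highest for both. Their part in the Sparc values was not tested.

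The cytoplasmic protein gene Aif1 (ENSMUSG00000024397, chromosome 17, 35170991 to 35176068) had the largest difference of the 8. It was at 111.0, 111.9, 105.7 and 100.5 CPM in libraries EYFP 1 to 4 and at 110.7, 126.1 and 145.4 CPM in ATG7 1 to 3. ATG7 2 and ATG7 3 were above all EYFP libraries, and ATG7 1 was just below EYFP 1 and EYFP 2. The means were 107 ± 5.28 CPM (SD, n = 4) and 127 ± 17.4 CPM (SD, n = 3).

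The log2 fold change of Aif1 was 0.25 ± 0.0926 (SE), and its 95% interval ran from 3.14% to 36.8% above the EYFP level. It was 0.24 without EYFP 3, 0.14 without ATG7 3 (unadjusted p = 0.148, edgeR adjusted p = 0.714) and 0.09 with the libraries scaled to genes shared by myeloid cells (unadjusted p = 0.384, edgeR adjusted p = 0.668). With all libraries and TMM the unadjusted p was 0.0213 and the edgeR adjusted p was 0.307, so that the gene did not pass. Over 18 alternatives the adjusted p lay between 0.156 and 0.856. Aif1 had the fewest counts of the 8, 4064 to 6929 per library, and its counting error at the lowest count was 1.57%, small beside the spread of the ATG7 libraries.

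**Figure D2:**
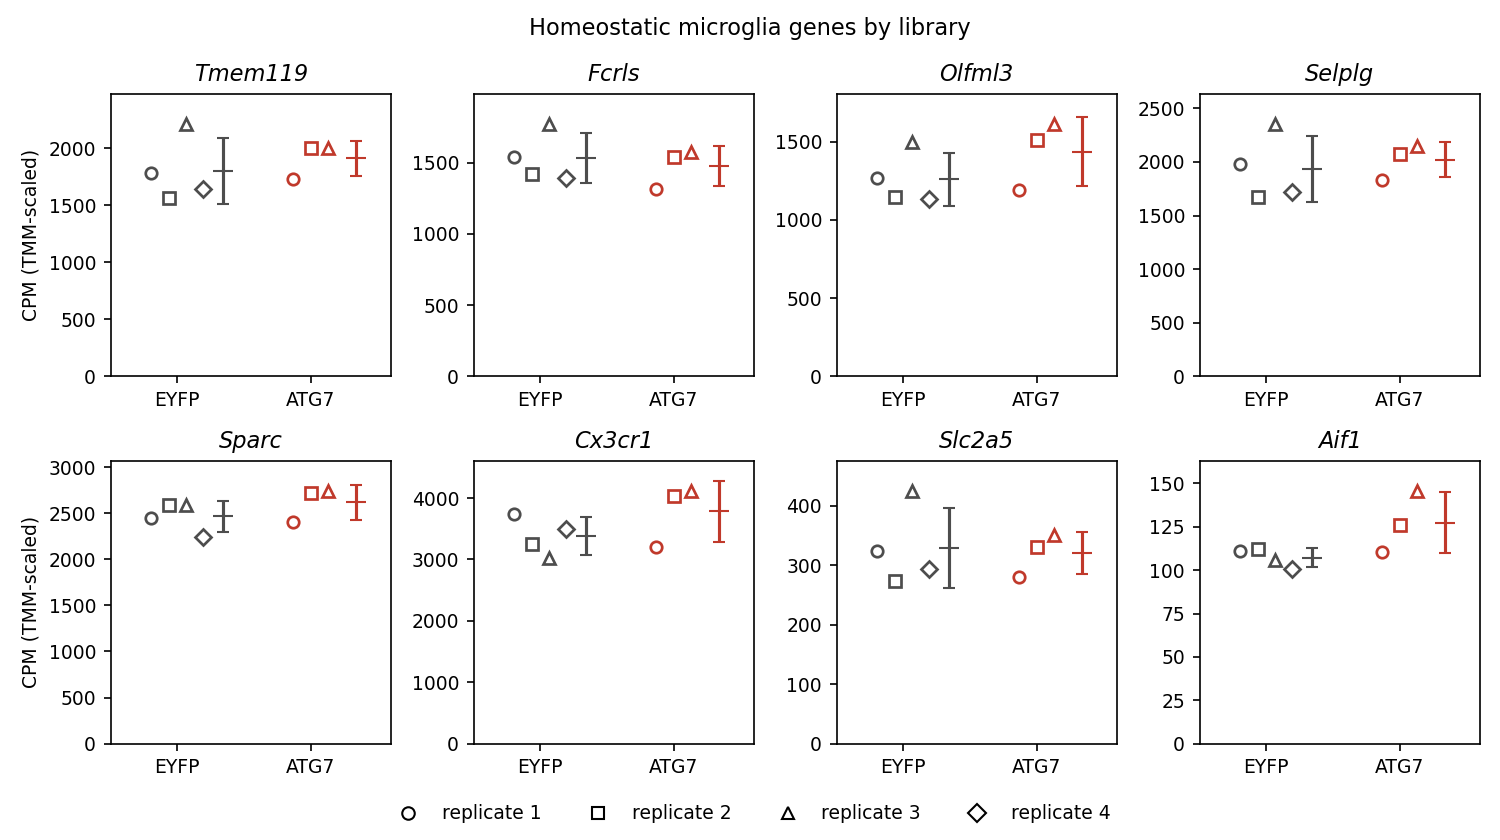
TMM-scaled CPM for each homeostatic gene, with 1 marker per library and the mean ± SD of each group to the right of its points (EYFP, n = 4, grey; ATG7, n = 3, red). The groups overlap in each panel, EYFP 3 (triangle) is the highest library for 4 genes, and ATG7 1 (circle) is the lowest ATG7 library for 8 of 8.

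The 8 genes shared their variation over the libraries to different degrees. The Pearson correlation of log2 CPM between 2 of them ran from 0.0230 (Cx3cr1 and Slc2a5) to 0.982 (Tmem119 and Selplg). ATG7 1 was the lowest ATG7 library for 8 of 8 genes, and ATG7 2 and ATG7 3 were above the EYFP mean for 8 of 8. EYFP 3 was the highest of all libraries for Tmem119, Fcrls, Selplg and Slc2a5. It was the lowest of all for Cx3cr1, where it lay 0.15 below the EYFP mean on the log2 scale, against 0.39 above it for Slc2a5. In EYFP the lowest library was EYFP 2 or EYFP 4 for 7 of the 8 genes.

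Without EYFP 3, the library that stood apart by Xist, the log2 fold changes of the 8 genes lay between 0.02 (Fcrls) and 0.28 (Olfml3). Fcrls and Slc2a5 then turned from below to above 0, to 0.02 and 0.11, the value for Cx3cr1 went from 0.16 to 0.11, and Sparc was at 0.10. No gene passed without EYFP 3 (the lowest edgeR adjusted p was 0.395, for Aif1), and 2 genes, Olfml3 and Aif1, had an unadjusted p under 0.05. Without ATG7 1, the lowest ATG7 library for each gene, all 8 values were also above 0, from 0.03 (Fcrls) to 0.34 (Aif1), and again none passed (the lowest edgeR adjusted p was 0.156, for Aif1), with 3 genes at an unadjusted p under 0.05.

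The median over the 8, 0.0870 with all libraries, went down most when ATG7 3 or EYFP 4 was left out. Without ATG7 3 the median over the 8 was 0.0473, with Aif1 at 0.14, Olfml3 at 0.09 and Cx3cr1 at 0.09, and 0 of the 8 had an unadjusted p under 0.05 (edgeR). Without EYFP 4 the median was 0.0449 and again 0 of the 8 had an unadjusted p under 0.05. Cx3cr1 went the other way there, from 0.16 to 0.18. The median was also lower without ATG7 2 (0.0569), EYFP 2 (0.0627) and, slightly, EYFP 1 (0.0825).

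**Figure D3:**
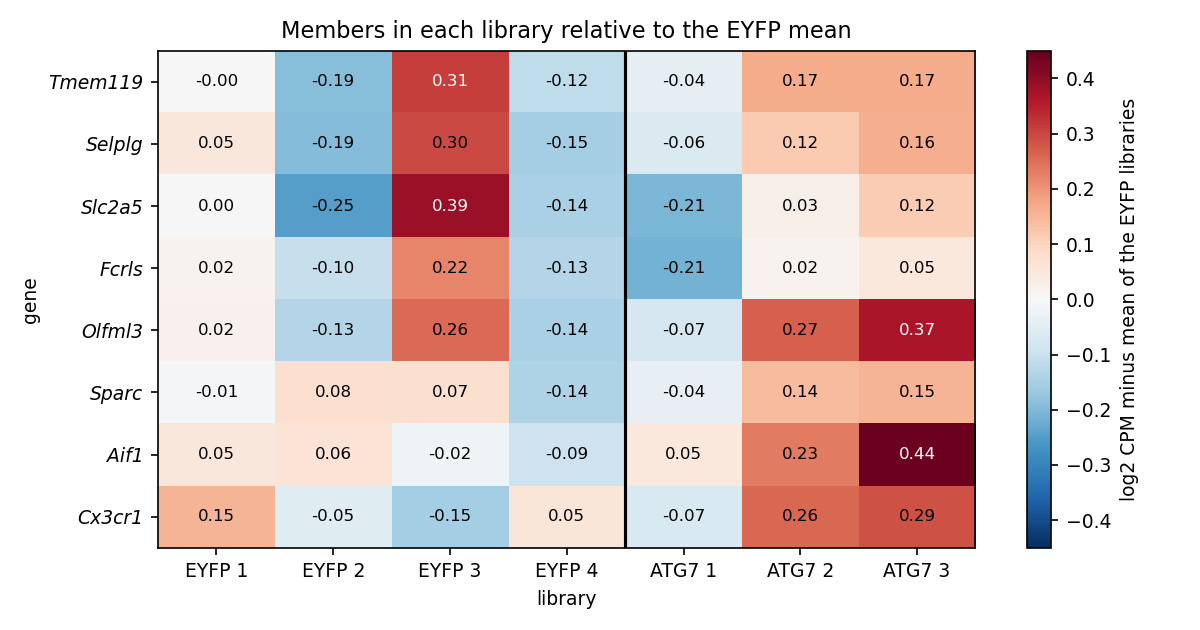
Log2 CPM of each homeostatic gene (rows) in each library (columns) minus the mean of the 4 EYFP libraries, with the value in each cell and the black line between the groups. EYFP 3 reaches 0.39 for Slc2a5 and -0.15 for Cx3cr1, and ATG7 3 reaches 0.44 for Aif1.

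The homeostatic genes were set beside 13 genes shared by myeloid cells, such as the phosphatase gene Ptprc (CD45) and Laptm5. The summed CPM of the 8 genes was 13195, 12019, 13990 and 12018 over EYFP 1 to 4 and 12074, 14327 and 14681 over ATG7 1 to 3. The pan-myeloid sum was 5560, 5198, 5970.1 and 5049 CPM over EYFP 1 to 4 and 5304, 6315 and 6463 CPM over ATG7 1 to 3. Both sums put the 7 libraries in the same order, from EYFP 4 at the bottom through EYFP 2, ATG7 1, EYFP 1, EYFP 3 and ATG7 2 to ATG7 3. The 3 libraries with the lowest sums, EYFP 2, EYFP 4 and ATG7 1, also had the highest sums of choroid plexus markers, 73117, 66604 and 61762 CPM, and the part of the latter in the sums was not tested.

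As a percentage of the pan-myeloid sum, the 8 genes together were between 231% and 238% in EYFP and between 226.9% and 227.7% in ATG7. These ranges did not overlap. On that scale 7.82% of single genes tested were lower without overlap, which is not a share for sums of genes. Singly, Olfml3, Cx3cr1 and Aif1 had the higher mean percentage in ATG7, and Tmem119, Fcrls, Selplg, Sparc and Slc2a5 the lower. Both sums had the higher mean in ATG7, 13694 against 12805 CPM for the 8 genes and 6027 against 5444 CPM for the pan-myeloid genes, and the pan-myeloid sum differed by the larger proportion. No pan-myeloid gene passed with edgeR or limma-voom (0 of 13; 5 and 6 of 13 at an unadjusted p under 0.05) and DESeq2 called 1 of 13. For 13 of 13 the log2 fold change was above 0, with a median of 0.17 (0.20 without EYFP 3) and Ptprc the lowest in p (0.39, SE 0.111, edgeR adjusted p = 0.173).

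Scaling the libraries to this sum moved the median over all genes to a log2 fold change of -0.15. The median of the 8 homeostatic genes was then -0.06, and 6 of the 8 were above the median of all genes, as with TMM. Such a scaling shifts all genes by a similar amount, so that the count of 6 was nearly fixed in advance. Of the 8, Fcrls alone did not overlap between groups when set relative to the pan-myeloid sum. It was 28.1% ± 1.10 of that sum in EYFP (SD, n = 4) and 24.6% ± 0.243 in ATG7 (SD, n = 3), lower in 3 of 3 ATG7 libraries, beside the same 7.82% of all genes. The test of Fcrls on that scale gave a log2 fold change of -0.19 (edgeR adjusted p = 0.378).

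**Figure D4:**
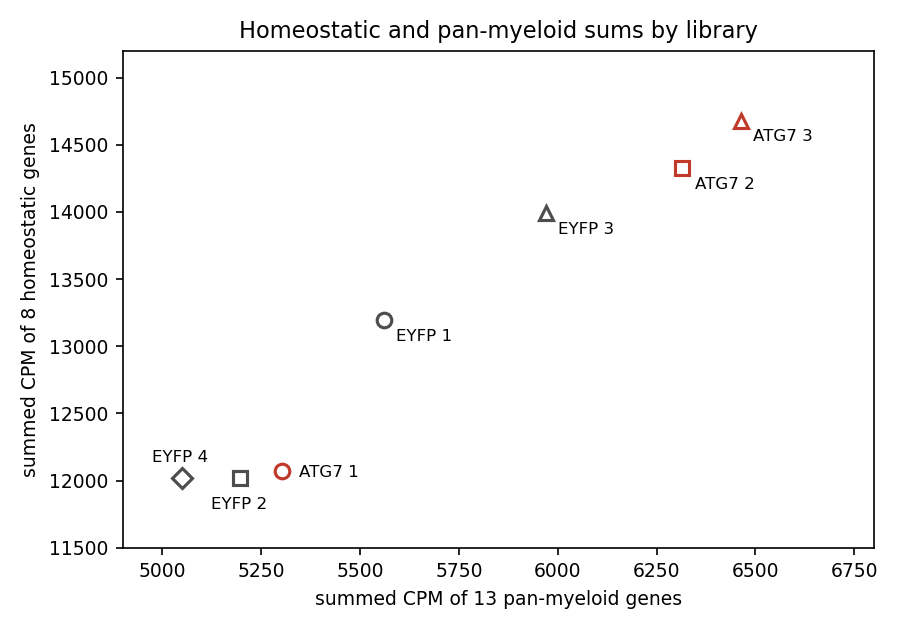
Summed CPM of the 8 homeostatic genes (vertical axis) against the summed CPM of 13 pan-myeloid genes (horizontal axis), 1 marker per library (EYFP grey, ATG7 red); neither axis starts at 0. The libraries fall in the same order on both axes, with EYFP 2, EYFP 4 and ATG7 1 at the bottom left.

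Other genes of the homeostatic state were counted from a list of 28, all tested. Of these, 1 passed as higher and 0 as lower (edgeR; 1 of 28 at an unadjusted p under 0.05), where 0.688% of all genes passed as higher and 0.0677% as lower. DESeq2 and limma-voom also called 1 as higher and 0 as lower, with 1 and 3 of 28 at an unadjusted p under 0.05. The median log2 fold change was 0.04, with 16 genes above 0 and 12 below. With the pan-myeloid scaling the median was -0.10, beside -0.15 for all genes, and 0 of 28 passed. On that scale 10 of 28 had an unadjusted p under 0.05 (edgeR), where 2368 of all 19199 genes tested did. The purinergic receptor gene P2ry12 was at -0.17 ± 0.121 (SE; edgeR adjusted p = 0.647).

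The gene that passed was Lag3, an inhibitory receptor of lymphocytes that microglia also express. It was at 311, 339, 304 and 316 CPM in libraries EYFP 1 to 4 and at 424, 508 and 529 CPM in ATG7 1 to 3, so that the groups did not overlap. Lag3 rose, by a log2 fold change of 0.62 ± 0.0917 (SE; edgeR adjusted p = 0.0143), and by 0.59 without EYFP 3 (edgeR adjusted p = 0.0293). Its call was lost without EYFP 4, ATG7 2 or ATG7 3 (edgeR adjusted p = 0.0676, 0.0800 and 0.102), with the pan-myeloid scaling (0.125) and with the replicate number as a block (0.266). Its log2 fold change was then 0.61, 0.59 and 0.55 without those libraries, 0.46 with the pan-myeloid scaling and 0.61 with the block.

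Disease-associated microglia genes, which rise in microglia around amyloid and in injury, were counted in the same way. Of 24 tested, 5 were higher and 0 lower in ATG7 (edgeR; 12 of 24 at an unadjusted p under 0.05), beside 0.688% of all genes higher and 12% at an unadjusted p under 0.05. DESeq2 called 8 and limma-voom 5 as higher and 0 as lower, where they called 2.30% and 0.953% of all genes as higher. The median log2 fold change was 0.26, beside 0.09 for the 8 homeostatic genes. Itgax, the integrin subunit CD11c, rose by 1.22 ± 0.140 (SE; edgeR adjusted p = 0.00705), the growth factor gene Csf1 by 0.61 ± 0.0757 (SE; edgeR adjusted p = 0.00705), and the lectin receptor gene Clec7a by 0.85 ± 0.116 (SE; edgeR adjusted p = 0.0105). The number called was 2 without ATG7 2, 3 without ATG7 3, 2 with the pan-myeloid scaling and 0 with the replicate block, and 6 without EYFP 3. Clec7a was among the calls lost without ATG7 2 and ATG7 3 (edgeR adjusted p = 0.0537 and 0.0729), with log2 fold changes of 0.86 and 0.81. With the pan-myeloid scaling Csf1 was at 0.47 and Clec7a at 0.70, and both lost their call (edgeR adjusted p = 0.175 and 0.107). Itgax kept its call there, at 1.06 (edgeR adjusted p = 0.0358). With the block, where no gene passed, Itgax was at 1.275, Csf1 at 0.60 and Clec7a at 0.88 (edgeR adjusted p = 0.0972, 0.219 and 0.219). Beside these genes, 10 of 10 choroid plexus markers had log2 fold changes below 0 and 13 of 13 pan-myeloid genes had values above 0. Of 11 blood myeloid and lymphocyte markers, 7 had values above 0 and 4 below, and 4 were higher without overlap. None of these passed with edgeR, and their part in the counts was not tested. The rises of the disease-associated genes were known when the lists were drawn up, and the difference between the 2 lists was not tested.

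**Figure D5:**
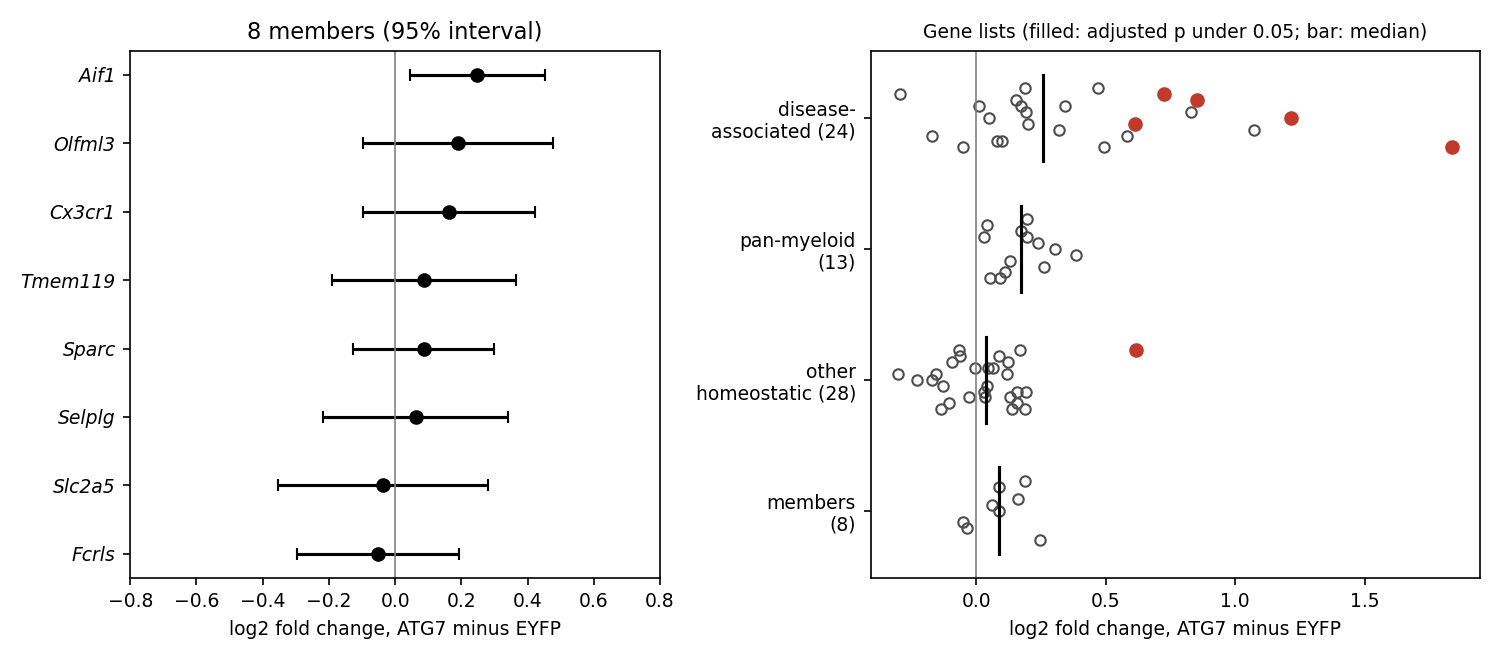
Left, log2 fold change (ATG7 minus EYFP) of the 8 homeostatic genes with its 95% interval. Right, the same quantity for each tested gene of 4 lists, with filled red points for edgeR adjusted p under 0.05 and a black bar at the list median; 0 of the 8, 1 of 28, 0 of 13 and 5 of 24 genes are filled.

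Ligands, partners and modifiers of the 8 proteins formed a list of 20 genes, of which 17 were tested. None passed with edgeR or limma-voom (2 and 1 of 17 at an unadjusted p under 0.05), and DESeq2 called 1 as higher, Lcp1. Lcp1, the actin-bundling protein that IBA1 binds, had the smallest p: the EYFP mean was 475 ± 31.9 CPM (SD, n = 4) and the ATG7 mean 581 ± 44.7 CPM (SD, n = 3), a log2 difference of 0.29 ± 0.0883 (SE; edgeR adjusted p = 0.203). Cx3cl1, the fractalkine ligand of Cx3cr1, had an EYFP mean of 37.2 ± 5.01 CPM (SD, n = 4) and an ATG7 mean of 32.5 ± 2.20 CPM (SD, n = 3), with a log2 fold change of -0.19 ± 0.106 (SE; edgeR adjusted p = 0.519). The selectin genes Selp and Sele, whose products bind PSGL-1, did not pass the filter, with at most 11 and 28 counts in a library.

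Family relatives of the 8 genes were listed to set their levels beside those of the 8. These bulk libraries also hold markers of other cells and cannot show which cells made a relative. Aif1l, the paralogue of Aif1, was at 1.94 CPM per kb of exon in EYFP against 70.0 for Aif1, and Sparcl1 was at 77.6 CPM per kb against 651 for Sparc. Fcrl1 was at 7.65 CPM per kb against 657 for Fcrls. The glucose transporter gene Slc2a1 was at 76.8 CPM per kb in EYFP, close to the 96.6 of Slc2a5. Of 18 relatives, 16 were tested and none passed with edgeR or limma-voom (4 of 16 at an unadjusted p under 0.05 with each), while DESeq2 called 1 as higher. The smallest p with edgeR was that of the chemokine receptor gene Cxcr4 (log2 fold change 0.36, SE 0.110, edgeR adjusted p = 0.20). Cxcr4 was not the gene called by DESeq2 (DESeq2 adjusted p = 0.0788).

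Markers of other cells were counted because some of the 8 genes are also made outside microglia. Summed markers of border macrophages, which share Cx3cr1 and Aif1, were at 583 to 703 CPM in EYFP and 626 to 728 CPM in ATG7. Markers of blood myeloid cells and lymphocytes summed to 37.8 to 75.5 CPM in EYFP and to 29.0, 42.6 and 142 CPM in ATG7 1 to 3, with the highest value in ATG7 3, the library highest in Aif1. That sum is carried by the neutrophil genes S100a8 and S100a9. The T cell genes Cd3d (log2 fold change 2.33) and Cd3e (1.35), the cytotoxic granule gene Nkg7 (1.53) and Plac8 (1.45) were higher without overlap in 3 of 3 ATG7 libraries, 4 of 11 tested where 6.33% of all genes were. Of the 11, 7 had a log2 fold change above 0 and 4 below (lowest -0.39), with a median of 0.06. With a mean of at least 1 CPM required, 8 were tested, of which 0 passed and 3 had an unadjusted p under 0.05 (edgeR). None of the 10 and 11 tested genes of these lists passed with edgeR or limma-voom (2, of which 1 higher, and 5, all higher, at an unadjusted p under 0.05 in edgeR), and DESeq2 called 1 and 3 as higher. The part of these cells in the values of Aif1 and Cx3cr1 was not tested.

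The genes whose profile over the 7 libraries was most like the mean standardised log2 CPM of the 8 were sought among 15043 other genes at a mean of at least 1 CPM. They were Sash3, Laptm5, Anapc2, Coro1a and Sec61a1, whose Pearson likeness to that mean lay between 0.991 and 0.995. Laptm5 and Coro1a belong to the pan-myeloid list. None of the 5 differed between the groups (edgeR adjusted p from 0.681 to 0.880). The likeness is a description over 7 libraries that share their scaling factors.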

How the data were processed

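The authors deposited raw counts per gene (whole numbers, 7 columns, Ensembl identifiers). The submitters' processing notes name fastp 0.20.1, HISAT2 2.0.5, featureCounts and the builds mm10 and GRCm38. The strand setting and the treatment of shared reads are not given in the sources used here. GENCODE M21 supplied symbols, positions and exon lengths for 55141 of 55401 identifiers. Counts were fitted with edgeR 4.0.16 (R 4.3.3), by TMM scaling, filterByExpr and a robust quasi-likelihood test over 7 libraries without covariate. That left 19199 genes. SE was the absolute log2 fold change over the square root of F. CPM are counts scaled to the TMM-corrected library total, and a count of 3 was 0.0546 to 0.0820 CPM. Libraries of a group differed beyond counting noise (chi-square 19.2 to 41.3 per degree of freedom). The code was tested on simulated data, with changed genes drawn from all those tested. Of genes changed 1.5-fold, 2-fold and 3-fold, 44.7%, 65.5% and 85.7% were called. Unchanged genes made up 8.20% to 9.93% of the calls. DESeq2 1.42.0 and limma 3.58.1 were alternatives. All 8 genes are named in full. Of other lists, up to 3 passing genes, or the one of smallest p, and genes bearing on a member's identity are named. P2ry12, Cd3d, Cd3e, Nkg7, Plac8 and the comparison of Fcrls with the pan-myeloid sum were chosen after values were seen. The genes and lists were chosen with earlier results of these data known. One gene of a list is not reported here.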

Additional observations from a re-analysis of the deposited data

How the results depend on the processing

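Over 18 alternatives, 136 of the 144 recomputed values of the 8 genes kept their direction and stayed above the threshold, 8 reversed and none gained a call. Scaling to the pan-myeloid genes gave -0.0505 for Tmem119, -0.0758 for Selplg and -0.0599 for Sparc, and a median over the 8 of -0.0552, while the median of all genes moved to -0.146. Without EYFP 3, Fcrls was at 0.0209 and Slc2a5 at 0.106. Without ATG7 1 they were at 0.0262 and 0.0511, and without EYFP 2 Selplg was at -0.00646. With 1 library left out, Fcrls ranged from -0.106 to 0.0262, Selplg from -0.00646 to 0.166 and Slc2a5 from -0.121 to 0.106. The median over the 8 lay between 0.0449 and 0.15 when 1 library was left out. The number of genes that differed, 145 with the settings of the report, was 28 with the pan-myeloid scaling, 297 without the filter, 572 by the DESeq2 test and 0 with the replicate block (1256 at an unadjusted p under 0.05, edgeR). It lay between 28 and 277 with 1 library left out: 277 without EYFP 1, 94 without EYFP 2, 30 without EYFP 4, 28 without ATG7 2 and 30 without ATG7 3. The cause was not tested. The labels do not state that replicate numbers pair the libraries. Deviations of same-numbered libraries correlated at -0.0504, -0.175 and 0.0687, and 0 of 3 ATG7 libraries correlated best with its own number. With so few libraries these correlations cannot decide whether same-numbered libraries share a batch. With the block, 0 of the 8 genes passed (lowest adjusted p 0.856). The counting error of the 8 genes was at most 1.57% in a library. What set the width of the intervals was not tested.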
